A study of Saccharomyces cerevisiae with 2 samples.

Results

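The RAS and protein kinase A pathway of budding yeast was followed through 9 of its genes, RAS1, RAS2, CYR1, IRA1, IRA2, CDC25, TPK2, TPK3 and BCY1, in a comparison of RNA from cells labelled as lacking YDR374C with RNA from wild-type cells. The members were the non-control spots that carry 1 of these names in both scanner files, and they are 9 of the 6256 genes on the array. Both strains have the background BY4741, a haploid laboratory strain of mating type a without working HIS3, LEU2, MET17 and URA3, and were grown in SD, a synthetic defined medium, to mid-exponential phase (OD600 0.7). The product of YDR374C, Pho92, belongs to the YTH family of RNA-binding proteins. Total RNA (0.2 ug) of each strain was labelled and hybridised together on 2 two-colour Agilent arrays, with the RNA labelled as deletion in Cy5 (red) and wild-type RNA in Cy3 (green) on both. Since the dyes were not swapped, any dye effect on a gene cannot be told apart from the strain. The labels do not say whether the arrays hold separate cultures or how many clones of the deletion strain were used, so p-values cover only variation from array to array, possibly no more than technical.

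Ras proteins are small GTPases that switch adenylate cyclase on when they carry GTP. Cyclic AMP then binds the regulatory subunit of protein kinase A and frees its catalytic subunits, which in yeast promote growth on glucose and hold down stress responses. Exchange factors load Ras with GTP, and GTPase-activating proteins return it to the inactive form.

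Of the 9 members, 4 were higher in the RNA labelled as deletion (RAS2, CYR1, BCY1 and TPK3), 2 were lower (CDC25 and IRA2) and 3 did not pass the test (RAS1, IRA1 and TPK2). The test was limma's moderated test of the log2 ratio against 0, with Benjamini-Hochberg adjustment over all 5641 tested genes and a threshold of 0.05. That test called 73.1% of all tested genes, 36.4% higher and 36.7% lower, so 6 called members of 9 are a share near the background. The members' median log2 ratio was 0.03, beside -0.0019 over all tested genes. Of the called members, RAS2 and CDC25 lay at or beyond 0.5 on the log2 scale, as did 8.01% of all tested genes (4.13% higher and 3.88% lower). The same 2 members had a scanner p-value under 0.01 on both arrays, beside 5.07% of all tested genes. Every member passed the filter on dim probes, and none of their 12 spots per array was marked as an outlier, saturated or short of being well above background in either channel. RAS1, TPK2 and BCY1 have 2 spots each on an array and the other 6 members have 1. Values after ± are limma's moderated SE, in which each gene's variance is drawn toward a value shared by all tested genes. It can be smaller than the SE of the 2 array values alone.

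**Figure D1:**
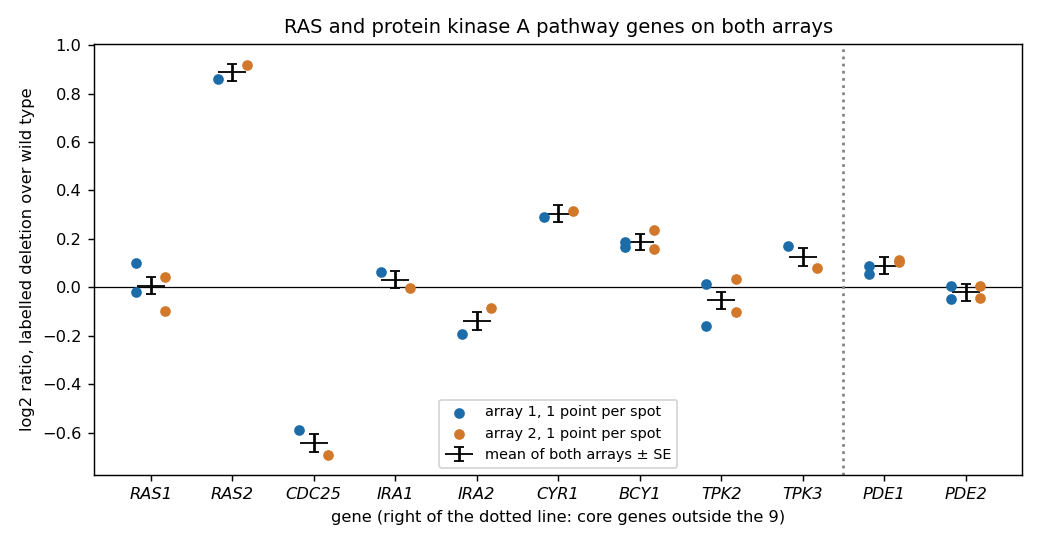
Log2 ratio of each member, RNA labelled as deletion over wild type, with 1 point per spot for array 1 (blue) and array 2 (orange). The mean of both arrays ± limma's moderated SE is in black. RAS2 lies at 0.89 and CDC25 at -0.64, and the other members lie between -0.14 and 0.30; PDE1 and PDE2 are drawn right of the dotted line.

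The arrays and labels were checked first. The median gene spot read 2105 and 3105 in the RNA labelled as deletion, against 1597 and 2371 in wild type, on arrays 1 and 2. Array 2 was thus brighter in both channels. Whether processed signals of the strains overlap across arrays is descriptive only, since each ratio was taken within an array. Across genes, which are not independent replicates, Pearson's r between the ratios of array 1 and array 2 was 0.958. For PHO92 (YDR374C), the gene labelled as deleted, the mean log2 ratio was -0.23 ± 0.03 (limma adjusted p = 2.74e-05), but 1 of its 2 spots stayed well above background in the RNA labelled as deletion, with processed signals of 223 and 238, against 271 and 247 in wild type. The position of the PHO92 probe within the gene is not used here, so the check does not settle whether the red channel lacked the transcript. All directions given here therefore follow the dyes named in the labels. Probes of LEU2, URA3 and MET17, genes that BY4741 lacks, read up to 235 in the RNA labelled as deletion and up to 182 in wild type. STE2, the receptor that marks cells of mating type a, read at least 5987 in the RNA labelled as deletion and at least 5369 in wild type, whereas STE3, the receptor of the opposite mating type, read at most 145 in the RNA labelled as deletion and at most 189 in wild type. Among other genes of mating type a, the mean log2 ratio was -0.43 ± 0.04 for BAR1, a protease, -0.32 ± 0.04 for MFA2 and -0.04 ± 0.03 for MFA1, the pheromone genes. The mean log2 ratio was 0.33 ± 0.04 for URA3 (limma adjusted p = 2.09e-06) and -0.31 ± 0.03 for STE3 (limma adjusted p = 1.49e-06). The test thus called URA3, which BY4741 lacks, at a dim signal. SAG1, the agglutinin of the opposite mating type (-0.02 ± 0.03), and HIS3 (-0.03 ± 0.04) did not pass.

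Ras itself was split. RAS2, a Ras GTPase that activates adenylate cyclase, gave processed signals of 9741 and 10039.8 in the RNA labelled as deletion on arrays 1 and 2, against 5338 and 5218 in wild type. Both values of the RNA labelled as deletion lay above both wild-type values. The log2 ratios were 0.86 and 0.92, with a mean of 0.89 ± 0.04 (moderated SE, n = 2, limma adjusted p = 6.56e-11), a 1.85-fold difference. RAS2 was among the 17 highest ratios of the 5641 tested genes, which is a rank and not a test. RAS2 was also the 1 member that passed a test against a 1.5-fold change (limma treat, adjusted p = 5.26e-05), which 1.45% of all tested genes passed. After median centring in place of loess its log2 ratio was 1.09.

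RAS1, the second Ras GTPase, showed no such difference. Its processed signals averaged over 2 spots were 2020.1 and 2920.5 in the RNA labelled as deletion, against 1986 and 3009 in wild type, and the strains overlapped. The mean log2 ratio was 0.01 ± 0.04 (limma adjusted p = 0.869), with a 95% interval of -0.07 to 0.08. The ratio of RAS2 exceeded that of RAS1 by 0.82 on array 1 and 0.94 on array 2 on the log2 scale, a difference between genes for which no test across 2 arrays was run. RAS1 and RAS2 are related genes, as are IRA1 and IRA2, and TPK2 and TPK3. Cross-hybridisation of their probes was not tested.

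**Figure D2:**
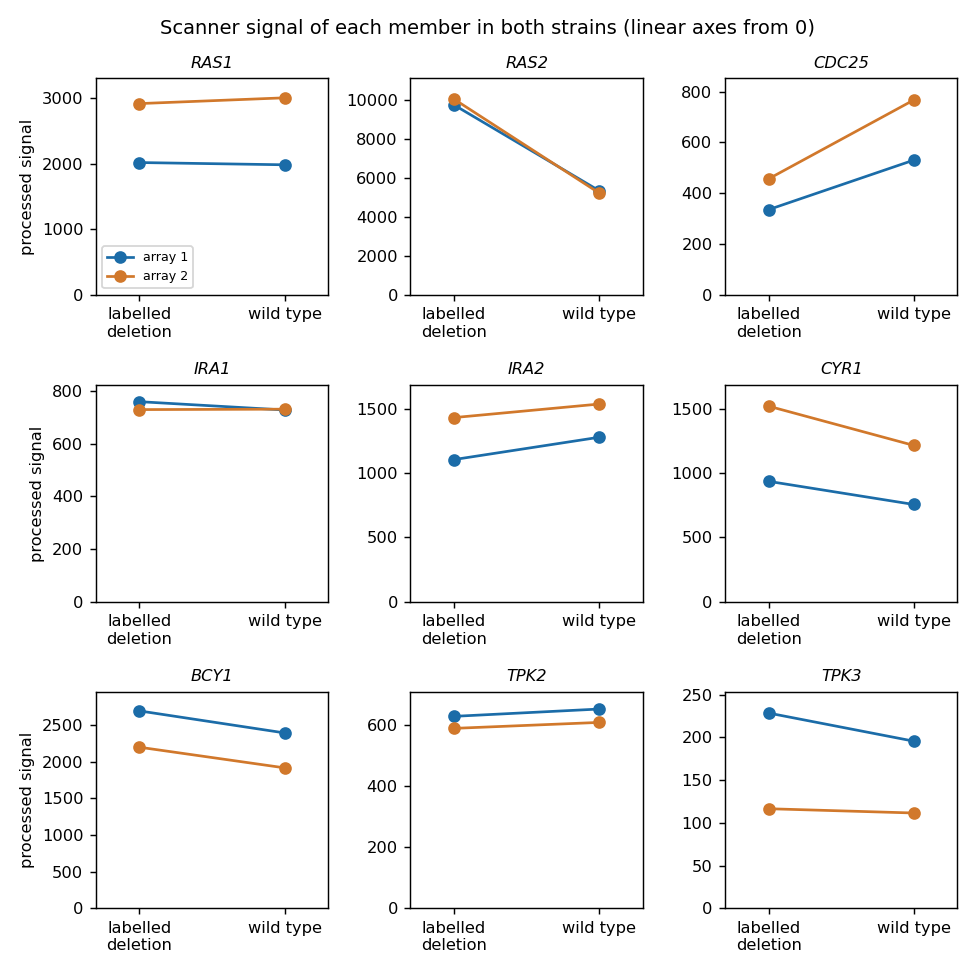
Processed scanner signal of each member, averaged over its spots, in the RNA labelled as deletion (left) and wild-type RNA (right) of each array, on linear axes that start at 0. Lines join the strains of 1 array; those of RAS2 run from 9741 and 10039.8 in the RNA labelled as deletion to 5338 and 5218 in wild type, those of CDC25 run the other way, and those of RAS1, IRA1 and TPK2 are nearly level.

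CDC25, the exchange factor that loads Ras with GTP, was the member with the lowest ratio. Its processed signals were 336 and 457 in the RNA labelled as deletion, against 531 and 768 in wild type, so both wild-type values lay above both values of the RNA labelled as deletion. The log2 ratios were -0.59 and -0.69, with a mean of -0.64 ± 0.04 (moderated SE, n = 2, limma adjusted p = 1.80e-09), which is a level of 0.641 of wild type. CDC25 was among the 85 lowest ratios of all tested genes. CDC25 did not pass against a 1.5-fold change (limma treat, unadjusted p = 0.0762). In bulk RNA, fewer cells with a transcript and less transcript per cell cannot be told apart.

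The GTPase-activating proteins Ira1 and Ira2, which switch Ras off, showed small differences at most. IRA2 gave 1107 and 1434 in the RNA labelled as deletion, against 1281 and 1539.5 in wild type. On each array the RNA labelled as deletion read lower, but the strains overlapped across arrays. The mean log2 ratio of IRA2 was -0.14 ± 0.04 (limma adjusted p = 0.00369), with -0.19 on array 1 and only -0.09 on array 2. IRA1 gave 759 and 729 in the RNA labelled as deletion, against 728 and 731 in wild type, with a mean log2 ratio of 0.03 ± 0.04 (limma adjusted p = 0.439) and a 95% interval of -0.04 to 0.11. The ratio of IRA1 exceeded that of IRA2 by 0.25 and 0.09 on the 2 arrays.

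Adenylate cyclase and the regulatory subunit were modestly higher. CYR1, the adenylate cyclase that makes cyclic AMP when Ras is active, gave 938 and 1524 in the RNA labelled as deletion, against 757 and 1218 in wild type. The RNA labelled as deletion was higher on each array, and array 1 was dimmer than array 2 in both strains. The log2 ratios of CYR1 were 0.29 and 0.32, with a mean of 0.30 ± 0.03 (limma adjusted p = 1.68e-06), a 1.23-fold difference. BCY1, the regulatory subunit that holds the kinase inactive until it binds cyclic AMP, gave 2689 and 2195 in the RNA labelled as deletion, against 2389 and 1914 in wild type. On each array the RNA labelled as deletion was higher, and the strains overlapped across arrays. The mean log2 ratio of BCY1 was 0.19 ± 0.03 (limma adjusted p = 0.000192), a 1.14-fold difference, and all 4 of its spot ratios lay between 0.16 and 0.24.

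The catalytic subunits in the set were close to equal in both strains. TPK2 gave 629 and 589.7 in the RNA labelled as deletion, against 653 and 609 in wild type, with a mean log2 ratio of -0.05 ± 0.03 (limma adjusted p = 0.183) and a 95% interval of -0.13 to 0.02. TPK3 was dim, with 228 and 117 in the RNA labelled as deletion, against 196 and 112 in wild type. These signals lie within the range read by the probes of LEU2, URA3 and MET17 in the RNA labelled as deletion, and reach just above it in wild type. The mean log2 ratio of TPK3 was 0.13 ± 0.04 (limma adjusted p = 0.00617), with 0.17 on array 1 and 0.08 on array 2, and its call was lost after median centring (0.070, limma adjusted p = 0.11) and with the deposited series table (0.14, limma adjusted p = 0.0582).

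The phosphodiesterases that break down cyclic AMP showed little: PDE1 had a mean log2 ratio of 0.09 ± 0.03 (limma adjusted p = 0.0308) and PDE2 had -0.02 ± 0.03 (limma adjusted p = 0.601). The call of PDE1 was lost after median centring (0.06), with the log ratios of the scanner software (0.09), with the deposited series table (0.10) and with its first spot alone (0.079). SRV2, which binds adenylate cyclase (-0.02 ± 0.04), and SDC25, a relative of CDC25 (0.05 ± 0.04 for YLL016W), did not pass. A second probe named SDC25 in the scanner files, that of YLL017W, read lower. Its 2 spots had log2 ratios of -0.13 and -0.28 on array 1 and of -0.29 and -0.32 on array 2.

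**Figure D3:**
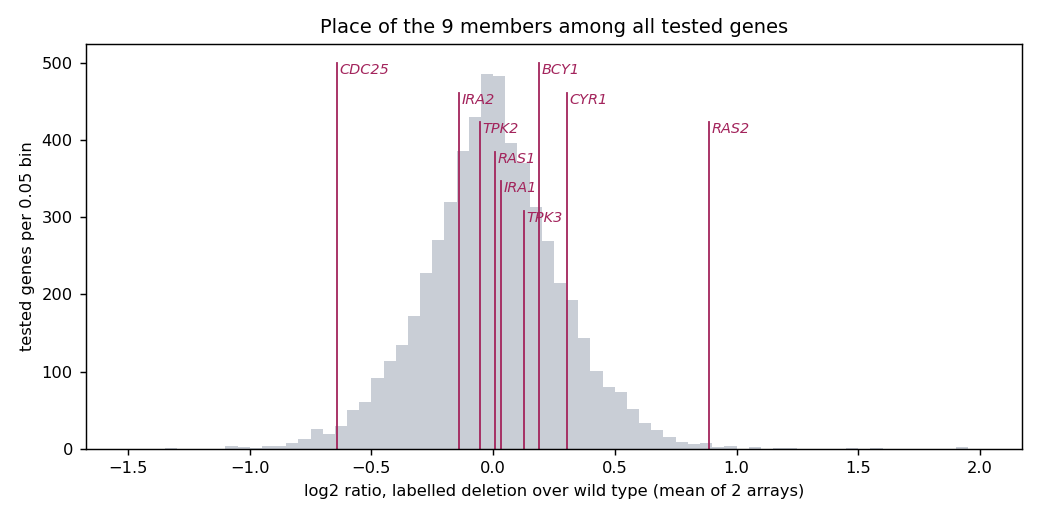
Histogram of the mean log2 ratio, RNA labelled as deletion over wild type, of all 5641 tested genes in bins of 0.05, with vertical lines at the 9 members (dark red); line heights only separate the names. RAS2 (0.89) stands in the thin upper tail and CDC25 (-0.64) in the lower one, while RAS1, IRA1, IRA2, TPK2 and TPK3 stand within 0.14 of 0.

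Duplicate spots gave a second measure of error within the members. The spots of RAS1 differed by 0.12 on array 1 and 0.14 on array 2, and those of TPK2 by 0.17 and 0.14, with the same spot higher on both arrays. These gaps are of the size of the mean ratios of IRA2 (-0.14) and TPK3 (0.13), which rest on 1 spot each. The spots of BCY1 differed by 0.02 and 0.08. Over the 3170 genes with 2 usable spots on both arrays, the gap between spots had an SD of 0.11 on array 1 and 0.10 on array 2. Its median absolute size was 0.067 and 0.059. The same spot was higher on both arrays for 57.4% of these genes, and Pearson's r of the gap between arrays was 0.215. The gaps of RAS1 and TPK2 are far below the ratios of RAS2 and CDC25. RAS2 and CDC25 also have 1 spot each, so a spot gap of their own was not measured.

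**Figure D4:**
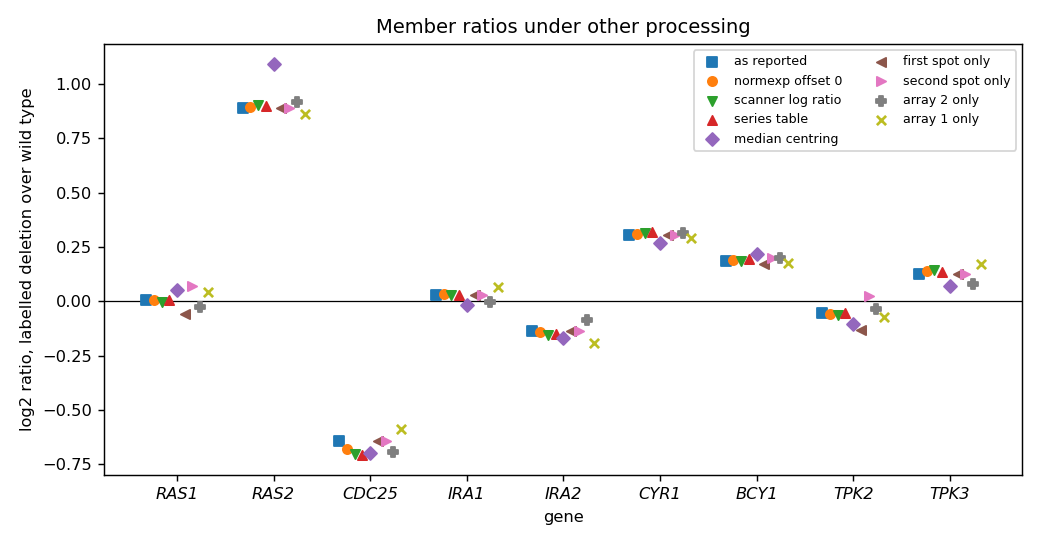
Mean log2 ratio, RNA labelled as deletion over wild type, of each member as reported (first symbol of each group) and under 8 other choices of background, normalisation, source table, spot or array. RAS2 stays between 0.86 and 1.09 and CDC25 between -0.71 and -0.59, while RAS1, IRA1 and TPK2 have symbols on both sides of 0.

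The genes around the core, in lists drawn up from their known roles, did not share a direction. In the branch that senses glucose through a receptor, 4 of 6 genes were higher, beside 36.4% of all tested genes. The median log2 ratio was 0.16, with 0.11 on array 1 alone and 0.22 on array 2 alone, beside -0.0019 for all tested genes. The receptor gene GPR1 had 0.21 ± 0.04, and GPB1 and GPB2, whose kelch-repeat proteins bind the G protein Gpa2, had 0.19 ± 0.04 and 0.34 ± 0.04; all 3 rose. The 1 gene called lower was ASC1, which encodes a ribosome-bound protein that also acts on Gpa2. All of its spots were saturated, so its ratio is not measured, and with saturated spots left out, which drops ASC1, the median of the branch was 0.19.

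Among the genes that modify Ras or act on the Ira proteins, 4 of 7 were lower and 2 higher (median -0.17), beside 36.7% lower and 36.4% higher of all tested genes. RAM1, a subunit of the farnesyltransferase that attaches a lipid to Ras, was lower by the most, with -0.73 and -0.55 on the 2 arrays and a mean of -0.64 ± 0.04 (limma adjusted p = 5.05e-09). ERF2 and SHR5, which together form the palmitoyltransferase of Ras2, had -0.24 ± 0.04 and -0.23 ± 0.04, and TFS1, which encodes an inhibitor of carboxypeptidase Y that also binds Ira2, had -0.17 ± 0.04; all 3 fell.

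Of the 14 kinases and regulators that act under protein kinase A or beside it, 12 were tested, of which 3 were higher and 7 lower, beside 36.4% higher and 36.7% lower of all tested genes. Their median log2 ratio was -0.10, and -0.15 after median centring. With outlier spots kept, SOK2 and MSN4 joined the list. Its median was then -0.053, and 5 of the 14 were higher, beside 2236 of all genes tested under that setting. MSN2, an activator of stress genes that the kinase keeps out of the nucleus, was lower (-0.47 ± 0.04), and so was the heat shock factor gene HSF1 (-0.42 ± 0.03, but -0.22 after median centring). ATG13 (0.28 ± 0.03) and ATG1 (0.24 ± 0.04), which start autophagy, were higher. SOK2 and MSN4 were not tested because their spot was marked as an outlier on array 2. Of 4 metabolic enzymes that the kinase phosphorylates, 3 were tested and 1 was called, as lower, beside 36.7% lower of all tested genes. FBP1 was not tested, since its spots were not well above background in either channel. The called gene, CDC19, the pyruvate kinase, had its spot saturated on both arrays, so its ratio is not measured. The trehalase gene NTH1 had 0.08 ± 0.03 (limma adjusted p = 0.056) and passed, for example, with the log ratios of the scanner software (0.11, limma adjusted p = 0.0446). Its spots differed: NTH1 passed with the first alone (0.15, limma adjusted p = 0.00172) but not with the second (0.0025, limma adjusted p = 0.963). After median centring NTH1 had 0.017 (limma adjusted p = 0.67).

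Of the 20 stress genes that high protein kinase A activity is known to hold low, 18 were tested, of which 11 were higher and 2 lower (61.1% and 11.1%, beside 36.4% and 36.7% of all tested genes). Their median log2 ratio was 0.16. HSP104 and ALD3 were not tested because their spot was marked as an outlier on array 2. With outlier spots kept both joined the list, and its median was 0.11. The loess log2 ratios on arrays 1 and 2 were -0.04 and -0.01 for HSP104 and -0.01 on both for ALD3. With the second spot of each probe alone the list median was 0.078, and a gene whose second spot was marked as an outlier was left out. The repressor gene XBP1 had 0.74 ± 0.04, DCS2, which acts on mRNA cap turnover, 0.62 ± 0.03, the hexokinase HXK1 0.54 ± 0.03 and the polyubiquitin gene UBI4 0.52 ± 0.03, and all 4 rose. The catalase gene CTT1 (-0.13 ± 0.04) and the chaperone gene SSA3 (-0.13 ± 0.04) were lower. CTT1 was dim, with mean signals of 102 and 120 in the RNA labelled as deletion, against 127 and 135 in wild type. These lie within the range read by the probes of LEU2, URA3 and MET17. The list was not tested as a set, and it was drawn up with earlier results of these data known.

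**Figure D5:**
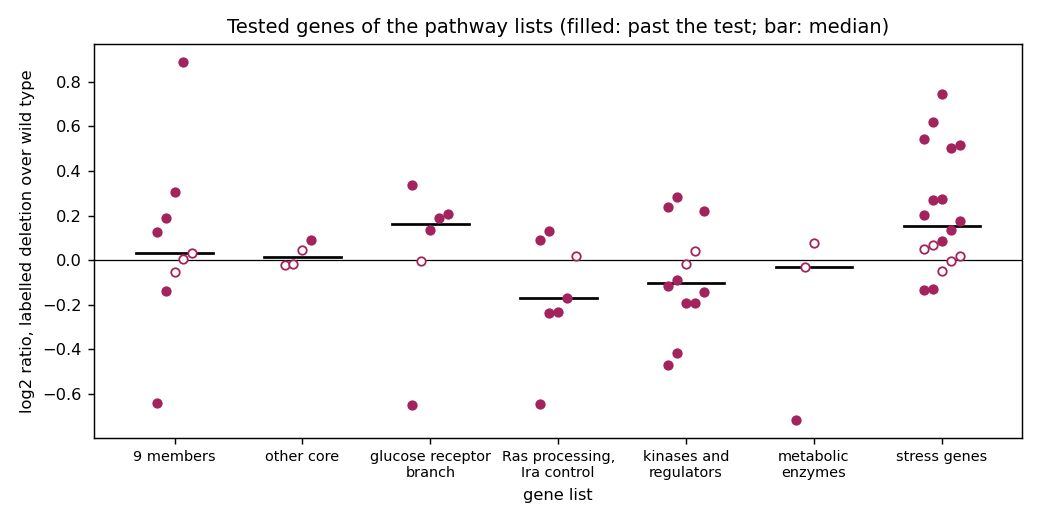
Mean log2 ratio, RNA labelled as deletion over wild type, of every tested gene in the 9 members and 6 further lists, with filled points past limma's test, open points not past it and a bar at each list's median. Medians run from -0.17 for Ras processing and Ira control to 0.16 for the glucose receptor branch and the stress genes, and the lowest points of the glucose receptor branch and of the metabolic enzymes are ASC1 and CDC19, whose saturated spots give no measured ratio.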

How the data were processed

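Members and gene lists were chosen with earlier results of these data known. The deposited scanner files hold spot intensities in both channels with local background and flags; per the file headers Agilent Feature Extraction 9.5.3.1 wrote them, while the submitters' processing notes name 9.3.2.1. The same deposited files give a log10 ratio of red over green after LOWESS dye normalisation, per the file headers, and the scanner software's p-value for it. The authors' series table has log2 values; how they were made, and on which scale they were centred, is unknown here, and set against the scanner ratios they run red over green.

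Mean signals were background-corrected (normexp, offset 50, median local background) and loess-normalised within arrays, giving control spots no weight (limma 3.58.1, R 4.3.3). Outlier-marked spots, 6.47% and 8.92% of gene spots, were dropped, saturated spots kept and spots of a probe averaged. A gene was tested where, on each array, 1 channel or both read well above background. Ratios were tested with lmFit and eBayes, tried on simulated data. The simulated arrays were independent, had the variances that limma fitted and held no dye effect. That trial therefore cannot show how a dye effect or a shared culture would alter the calls. With 2 arrays an exact sign-flip test cannot give p below 0.5. Both arrays lie on 1 slide with 1 scan, so no batch could be compared. The number of arrays limits the precision. Named were all members, PDE1, PDE2, the strain markers and, from every other list, up to 4 genes with 1 sign on both arrays, taken by size of ratio. SRV2, SDC25, YLL017W, CTT1, SSA3 and genes not tested were named after their values were seen. Symbols came from the RefSeq table of assembly R64 for 5756 of 6256 genes. Results on 1 further gene are not reported here.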

Additional observations from a re-analysis of the deposited data

How the results depend on the processing

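RAS2, CDC25, CYR1, BCY1 and IRA2 kept their direction and their call under another offset, the scanner software's log ratios, median centring and the series table. Keeping outlier spots, leaving out saturated ones and both other filters on dim probes could not move a member's ratio, since no member spot is of these kinds. Using 1 spot of a probe, added after seeing the data, could move only RAS1, TPK2 and BCY1 among the members, and BCY1 kept its call. Over all settings RAS2 ranged from 0.86 to 1.09, CDC25 from -0.71 to -0.59, CYR1 from 0.27 to 0.32, BCY1 from 0.17 to 0.22 and IRA2 from -0.19 to -0.09. TPK3 lost its call after median centring (0.070) and with the series table (0.14). TPK2 passed after median centring (-0.11, limma adjusted p = 0.0165) and with its first spot alone (-0.13, limma adjusted p = 0.00691), and turned with its second (0.024). RAS1, which did not pass, turned with the scanner log ratios (-0.0035) and its first spot (-0.057), and IRA1, which did not pass, after median centring (-0.017). PDE2 turned with its second spot (0.0064). The cause of these changes was not tested.

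Against a 1.5-fold change limma treat called 40 genes higher and 42 lower, with 1 member higher and 0 lower (also 0 lower at an unadjusted p under 0.05), and it lost CYR1 (0.30), BCY1 (0.19), TPK3 (0.13), IRA2 (-0.14) and CDC25 (-0.64). The scanner software's p-value under 0.01 on both arrays gave 144 higher and 142 lower genes, with 1 member each way, RAS2 and CDC25, and lost CYR1 (0.32), BCY1 (0.18), TPK3 (0.14) and IRA2 (-0.16).

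The median of the kinases and regulators was -0.15 after median centring and -0.053 with outlier spots kept, when SOK2 and MSN4 joined the list. That of the stress genes was 0.11 with outlier spots kept, when HSP104 and ALD3 joined the list, and 0.078 with second spots. The metabolic enzymes had a median of -0.28 with first spots, but it rested on NTH1 and on CDC19, whose saturated ratio is not measured. Another tested enzyme was left out there, since its first spot was marked as an outlier on array 1. With array 1 and then array 2 alone, where there is no test, RAS1 had 0.04 and -0.03, RAS2 0.86 and 0.92, CYR1 0.29 and 0.32, IRA1 0.06 and -0.00097, IRA2 -0.19 and -0.09, CDC25 -0.59 and -0.69, TPK2 -0.07 and -0.03, TPK3 0.17 and 0.08 and BCY1 0.18 and 0.20. No paired analysis was possible because each array already holds both strains and there is 1 group of ratios.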

Other observations

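The genes next to the members on the chromosomes, by their order in the RefSeq table, were called about as often as all genes. Of the 16 neighbours that were tested, 8 were higher and 4 lower, which is 75% called beside 73.1% of all tested genes, with a median log2 ratio of 0.08. Both neighbours of IRA2 (-0.14) were lower, ATG19 (-0.44 ± 0.05) and REX4 (-0.20 ± 0.04). Beside CDC25 (-0.64), the neighbours IMH1 (0.15 ± 0.03) and ATG39 (0.12 ± 0.03) were both higher. Neither neighbour of RAS2 was tested.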
